A study of Homo sapiens with 4 samples.

Results

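Interferon-stimulated genes are the genes that cells switch on when interferon reports a virus, and 46 of them were followed here through a leukaemia and a myeloma line exposed to atovaquone, an antimalarial drug that inhibits the mitochondrial cytochrome bc1 complex. The members were taken by gene symbol from the array's probe annotation, and 44 of the 46 had a probe set that carried their symbol alone, out of 18417 genes with such a probe set. STAT2 was not listed in the annotation used here, and GBP1 was listed only on a probe set shared with GBP3 and GBP1P1. The study had 4 arrays, 1 per group, all of bulk RNA. U266, a multiple myeloma line that makes IL-6, received 15 µM atovaquone for 2 h or the DMSO vehicle for 2 h. K562, derived from chronic myeloid leukaemia and driven by the BCR-ABL1 fusion, received 20 µM atovaquone for 5 h or the DMSO vehicle for 5 h. No group had a replicate, so no test was run, every ratio describes a pair of arrays, and the number of arrays limits the precision of each value. Drug dose and exposure time differed between the lines, so the lines are given side by side.

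Type I interferons bind the receptor pair IFNAR1 and IFNAR2, whose kinases TYK2 and JAK1 phosphorylate transcription factors such as STAT2. With IRF9 these form a complex that binds a short promoter sequence, the interferon-stimulated response element. The genes behind it sense viral RNA, block translation, cleave RNA, hold virions at membranes or attach the ubiquitin-like protein ISG15 to other proteins. Many keep a low level of expression without added interferon, and that level differs widely between cell lines.

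Promoter windows from RefSeq on the GRCh38.p14 build, each running from 250 bases before to 50 bases after a gene's start, were available for 37 of the 46 members. The core of the response element was searched as GAAA, any 2 bases and GAAA again, on both strands and with overlapping matches allowed. It was present in a window of 23 of the 37 members, or 62.2%, against 4.38% of the 27305 genes that have a window. Of the members at least 4-fold different between the vehicle arrays, OAS3, IFI6, IFITM1 and MX1 were among the 23. OAS1, OAS2, IRF9, IFI16, MX2 and IFITM2 were not, for want of a match or of a window. Windows are printed for 5 members as examples, with the core in capitals. ZC3HAV1 (chr7:139109671-139109970, minus strand) and TRIM25 (chr17:56914000-56914299, minus strand) had the lowest atovaquone ratios among members above the floor on both U266 arrays, and their windows held 0 matches. OAS3 (chr12:112938224-112938523, plus strand) and IFI6 (chr1:27672143-27672442, minus strand) were far higher in vehicle-treated U266 than in vehicle-treated K562. IFITM1 (chr11:313790-314089, plus strand) had the opposite pattern.
ZC3HAV1: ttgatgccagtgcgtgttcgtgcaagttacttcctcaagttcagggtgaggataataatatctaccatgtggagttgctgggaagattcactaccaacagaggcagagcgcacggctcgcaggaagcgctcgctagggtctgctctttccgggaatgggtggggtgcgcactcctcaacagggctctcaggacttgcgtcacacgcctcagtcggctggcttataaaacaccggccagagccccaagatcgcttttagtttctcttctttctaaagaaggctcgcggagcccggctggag
TRIM25: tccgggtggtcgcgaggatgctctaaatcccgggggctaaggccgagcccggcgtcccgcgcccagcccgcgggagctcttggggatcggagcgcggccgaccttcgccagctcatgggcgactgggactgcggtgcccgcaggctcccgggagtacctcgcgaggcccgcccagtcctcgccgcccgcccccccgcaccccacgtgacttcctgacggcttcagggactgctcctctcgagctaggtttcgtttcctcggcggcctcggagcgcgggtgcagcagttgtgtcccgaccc
OAS3: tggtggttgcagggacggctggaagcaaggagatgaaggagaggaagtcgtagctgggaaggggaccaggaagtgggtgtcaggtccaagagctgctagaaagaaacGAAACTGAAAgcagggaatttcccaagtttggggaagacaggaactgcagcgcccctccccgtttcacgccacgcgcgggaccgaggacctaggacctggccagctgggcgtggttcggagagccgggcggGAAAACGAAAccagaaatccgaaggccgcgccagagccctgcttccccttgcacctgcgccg
IFI6: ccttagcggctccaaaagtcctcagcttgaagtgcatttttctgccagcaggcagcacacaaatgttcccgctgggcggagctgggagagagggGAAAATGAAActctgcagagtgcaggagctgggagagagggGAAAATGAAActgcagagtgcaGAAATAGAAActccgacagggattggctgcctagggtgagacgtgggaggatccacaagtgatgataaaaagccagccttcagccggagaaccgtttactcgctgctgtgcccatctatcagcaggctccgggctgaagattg
IFITM1: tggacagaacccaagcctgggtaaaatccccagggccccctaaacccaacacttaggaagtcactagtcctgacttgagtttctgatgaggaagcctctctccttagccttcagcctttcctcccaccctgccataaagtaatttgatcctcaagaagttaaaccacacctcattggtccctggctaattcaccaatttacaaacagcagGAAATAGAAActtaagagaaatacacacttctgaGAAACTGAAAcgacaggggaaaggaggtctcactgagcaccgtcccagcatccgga
The matches in OAS3 began 143 and 12 bases before the start, those in IFI6 156, 115 and 93 bases before it, and those in IFITM1 40 and 6 bases before it. A match is a description of letters in a window, and a window with 0 matches says nothing of factors that bind elsewhere.

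Each array had a floor, set at the 40th percentile of its annotated probe sets, and lower values were treated as not measured. The floors were intensities of 324 and 331 on the atovaquone and vehicle arrays of U266 and of 306 and 305 on those of K562. Array medians ranged from 314 to 340. The labelled lines carried their own marker genes: 8 of 8 plasma cell markers were at least 2-fold higher in the U266 vehicle array, and 6 of 7 erythroid markers with a value were at least 2-fold higher in the K562 vehicle array. Among 10 markers of other blood and stromal cells, PECAM1 was 2-fold or more higher in vehicle-treated U266, and LYZ and CD68 in vehicle-treated K562. Of the 44 members, 16 lay above the floor on all 4 arrays and 11 on none. A further 13 were above it on both U266 arrays and on neither K562 array, and 2 were above it on both K562 arrays and on neither U266 array. Among all genes 6.84% had the first of these one-sided patterns and 6.93% the second, against 29.5% and 4.55% of members. Of all genes 50.1% lay above the floor on all 4 arrays and 30.3% on none, each a larger share than among the members.

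Vehicle-treated U266 expressed the larger part of the set at a higher level than vehicle-treated K562. A vehicle array read 32 members above its floor, and 19 of them (59.4%) exceeded the K562 level in U266 by 2-fold or more, while 2 (6.25%) exceeded the U266 level in K562 by as much. The shares among all 12574 genes read in this way were 11.2% toward U266 and 8.85% toward K562. Of the 16 members above the floor on both vehicle arrays, 7 were 2-fold or more higher in U266 and 1 in K562, where all genes gave 7.97% and 6.97%. The 16 had a median log2 difference, U266 minus K562, of 0.67, against -0.0071 for all genes measured on both. Where a gene lay below the floor on 1 array its fold is a bound, written "at least", computed against the floor of that array. The vehicle cultures also differed in time, at 2 h and 5 h, and line and time cannot be told apart. Bulk RNA cannot tell fewer expressing cells from less RNA per cell.

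**Figure D1:**
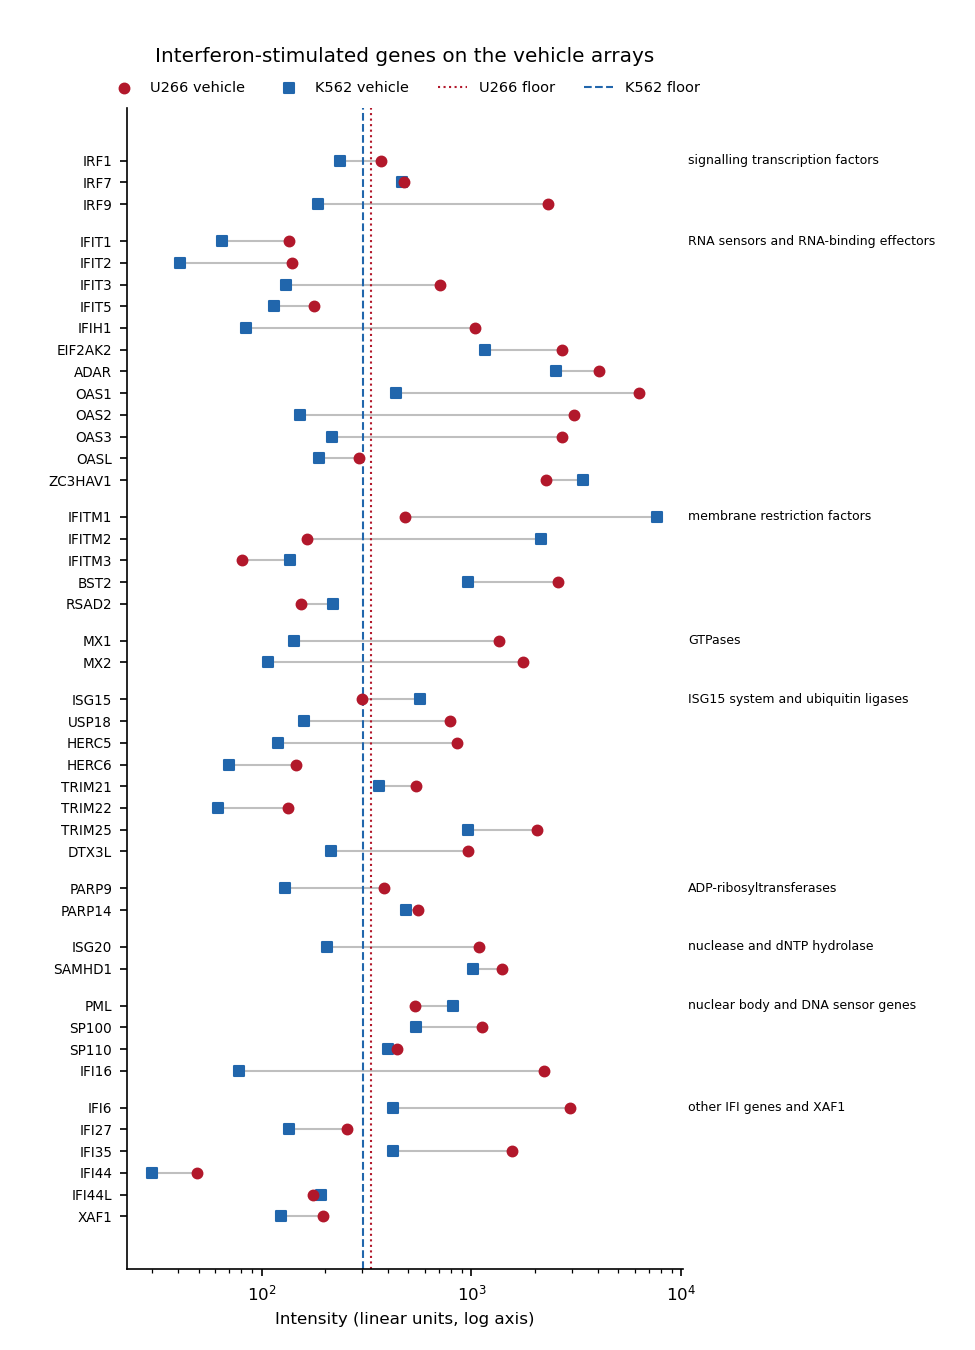
Intensity of the 44 members on the vehicle arrays, U266 as red circles and K562 as blue squares, on a log axis, grouped by role, with 1 array per point and each array's floor as a vertical line. OAS1 stood at 6297 in U266 and 438 in K562, while IFITM1 stood at 483 in U266 and 7688 in K562.

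Among the transcription factors, IRF9, the DNA-binding subunit of the interferon complex, separated the lines most. Its intensity was 2310 and 2323 on the U266 atovaquone and vehicle arrays, and 187 and 186 on the K562 atovaquone and vehicle arrays. Both K562 values were below the floor, and IRF9 was at least 7.74-fold higher in vehicle-treated U266. IRF7, which drives interferon genes themselves, was nearly level, at 479 in the U266 vehicle array and 467 in the K562 vehicle array. IRF1, a factor induced by interferon gamma and by other cytokines, reached 371 in vehicle-treated U266 and stayed below the floor in vehicle-treated K562, at 235.

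The oligoadenylate synthetases, which answer double-stranded RNA by activating RNase L, were higher in U266 by some of the largest folds among members. OAS1 had an intensity of 6817 and 6297 with atovaquone and vehicle in U266, and 389 and 438 with atovaquone and vehicle in K562, and its vehicle arrays differed 14.6-fold. OAS2 read 3109 and 3093 with atovaquone and vehicle in U266, and 134 and 152 with atovaquone and vehicle in K562, at least 10.3-fold higher in vehicle-treated U266. OAS3 read 2937 and 2693 with atovaquone and vehicle in U266, and 223 and 216 with atovaquone and vehicle in K562, at least 8.98-fold higher in vehicle-treated U266. These 3 genes sit next to each other on chromosome 12. OASL, a related protein that enhances RIG-I signalling, passed the floor only on the U266 atovaquone array, at 362, against 292 on the U266 vehicle array.

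The other RNA-binding effectors gave a mixed picture. IFIH1, which encodes the RNA sensor MDA5, had 1214 and 1039 with atovaquone and vehicle in U266, and 90 and 84 with atovaquone and vehicle in K562, and was at least 3.46-fold higher in vehicle-treated U266. EIF2AK2, the kinase PKR that halts translation, was 2.37-fold higher in vehicle-treated U266, and ADAR, which edits adenosines in double-stranded RNA, 1.63-fold. Of the IFIT genes, whose products bind viral RNA ends and lie together on chromosome 10, only IFIT3 was measured, at 883 and 709 with atovaquone and vehicle in U266, against 144 and 130 with atovaquone and vehicle in K562. IFIT1, IFIT2 and IFIT5 were below the floor on all 4 arrays. ZC3HAV1, the zinc finger antiviral protein that binds CpG-rich RNA, was 1 of 3 members measured on both vehicle arrays with a log2 difference below 0, at -0.56.

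In the membrane group the IFITM genes measured were higher in K562. IFITM1, which blocks virus fusion, had 507 and 483 with atovaquone and vehicle in U266, and 7541 and 7688 with atovaquone and vehicle in K562, and was 15.6-fold higher in vehicle-treated K562. IFITM2, from the same chromosome 11 cluster, had 204 and 164 with atovaquone and vehicle in U266, and 2349 and 2153 with atovaquone and vehicle in K562, at least 6.40-fold higher in vehicle-treated K562. IFITM3 was below the floor on all 4 arrays, at 79 to 189. The IFITM transcripts are close relatives, and whether their probes read each other was not tested. BST2, the tether that holds budding virions, was 2.72-fold higher in vehicle-treated U266, and RSAD2, which encodes viperin, was below the floor throughout.

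The GTPases MX1 and MX2, which trap viral nucleocapsids, were both measured in U266 alone. MX1 had 1306 and 1348 with atovaquone and vehicle in U266, and 147 and 142 with atovaquone and vehicle in K562, at least 4.49-fold higher in vehicle-treated U266. MX2 had 1627 and 1757 with atovaquone and vehicle in U266, and 100 and 107 with atovaquone and vehicle in K562, at least 5.86-fold higher in vehicle-treated U266.

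In the ISG15 system the modifier was higher in K562, and the ligase HERC5 and the protease USP18 were higher in U266. ISG15 itself had 293 and 301 with atovaquone and vehicle in U266, both below the floor, and 575 and 566 with atovaquone and vehicle in K562, at least 1.68-fold higher in vehicle-treated K562. HERC5, the ligase that attaches ISG15, was at least 2.85-fold higher in vehicle-treated U266, and USP18, the protease that removes it and restrains the interferon receptor, at least 2.64-fold. The ubiquitin ligase genes TRIM25 and TRIM21 were 2.19-fold and 1.54-fold higher in vehicle-treated U266. DTX3L, the ligase partner of PARP9, was at least 3.19-fold higher in vehicle-treated U266, PARP9 itself at least 1.27-fold, and their neighbour PARP14 1.17-fold. TRIM22 and HERC6 were below the floor on every array, as was UBA7, the activating enzyme for ISG15 and not a member, at 179 to 278.

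Among the remaining members IFI16, a nuclear DNA sensor, had 2242 and 2220 with atovaquone and vehicle in U266, and 98 and 78 with atovaquone and vehicle in K562, at least 7.40-fold higher in vehicle-treated U266. IFI6, a mitochondrial and endoplasmic reticulum protein with antiviral action, was 7.08-fold higher in vehicle-treated U266, IFI35 3.73-fold, and the exonuclease gene ISG20 at least 3.63-fold. The nuclear body gene SP100 was 2.09-fold higher in vehicle-treated U266, and SP110 differed by 0.17 on the log2 scale. PML, the organiser of those bodies, was 1.51-fold higher in vehicle-treated K562. SAMHD1, which hydrolyses dNTPs, was 1.41-fold higher in vehicle-treated U266. IFI27, IFI44, IFI44L and XAF1 were below the floor on all 4 arrays. Of the members with the response element core and a value, 10 of the 15 read above the floor on a vehicle array were 2-fold or more higher in vehicle-treated U266 and 1, IFITM1, in vehicle-treated K562. Toward U266 the counts were 6 of 11 for members without the core and 3 of 6 for members with no window, against the 11.2% of all genes.

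Nearly all of these genes lay close to their vehicle level in U266 treated with atovaquone. The U266 pair measured 29 members, of which 0 reached 1.5-fold higher and 1, ZC3HAV1, reached 1.5-fold lower. The same sizes were reached by 0.857% (higher) and 0.0932% (lower) of all 10731 genes that this pair measured. With bounds counted, 31 members gave the same 0 and 1, against 1.00% and 0.142% of all genes. The median log2 ratio of the members, atovaquone over vehicle, was 0.03, against -0.00012 for all measured genes. Of the 29, 20 lay above 0 and 9 below, over a range of -0.93 to 0.33.

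ZC3HAV1 had an intensity of 1184 on the atovaquone array and 2274 on the vehicle array of U266, a 1.91-fold lower level and a log2 ratio of -0.93. The gene was singled out with this ratio already known. It held rank 1 from the low end among all 10731 genes. TRIM25, an E3 ligase that activates RIG-I and serves as a cofactor of ZC3HAV1, came next among the 29, with 1474 on the atovaquone array and 2063 on the vehicle array of U266 and a log2 ratio of -0.48. TRIM25 held rank 28 from the low end of all genes. The central 95% of all measured ratios in U266 ran from -0.28 to 0.34, and ZC3HAV1 and TRIM25 were the only members among the 29 outside it. IFI35, the third lowest of the 29, stood at -0.16.

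**Figure D2:**
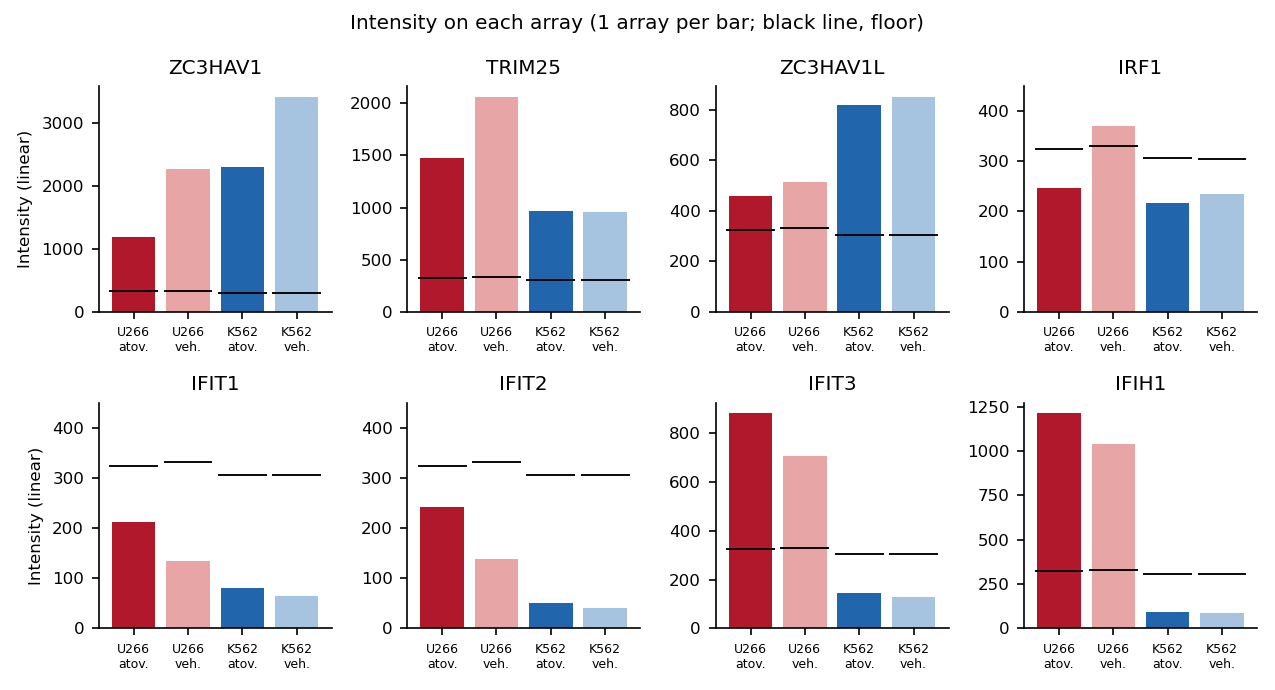
Intensity on each of the 4 arrays for 8 genes, 1 array per bar, each panel with its own linear axis from 0 and black lines at the array floors. ZC3HAV1 was lower with atovaquone in both lines (1184 against 2274 in U266, 2306 against 3414 in K562), TRIM25 differed in U266, and IFIT1 and IFIT2 stayed below the floor on every array.

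On the high side in U266 IFIT3 led the members, with 883 on the atovaquone array and 709 on the vehicle array and a log2 ratio of 0.33, which 2.64% of all genes reached or passed. IFIH1 followed at 0.23, and HERC5 and PARP9 both stood at 0.18. IFIT1 had 212 on the atovaquone array and 135 on the vehicle array, and IFIT2 242 on the atovaquone array and 139 on the vehicle array. Both were below the floor on both arrays, so no fold is given. IRF1 had 247 on the atovaquone array, below the floor, and 371 on the vehicle array, which bounds it as at least 1.14-fold lower with atovaquone. With the floor at the 20th percentile or with no floor its log2 ratio was -0.57, below the -0.47 of TRIM25. The genes that marked vehicle-treated U266 against vehicle-treated K562 had atovaquone ratios near 0 in U266. Log2 ratios were 0.12 for OAS1, 0.02 for OAS2, 0.13 for OAS3 and -0.04 for MX1. They were -0.10 for MX2, 0.0014 for IRF9, 0.02 for IFI16 and 0.05 for IFI6.

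**Figure D3:**
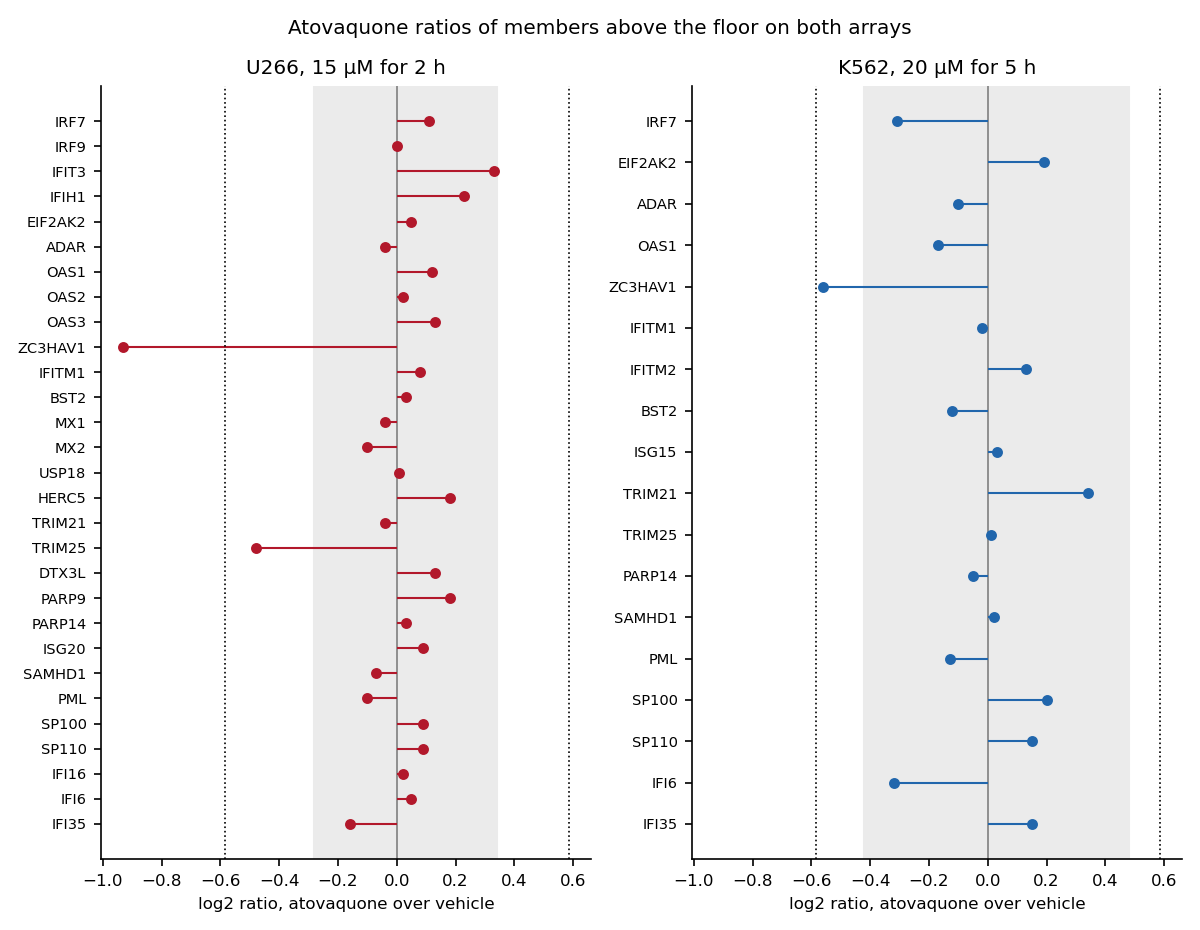
Log2 ratio of atovaquone over vehicle for each member above the floor on both arrays, 29 in U266 (left) and 18 in K562 (right), 1 pair of arrays per line. Grey bands span the central 95% of all measured genes and dotted lines mark 1.5-fold; ZC3HAV1 passes the dotted line in U266 and stops just short of it in K562.

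In K562 fewer members could be read, and ZC3HAV1 again had the lowest ratio among them. The K562 pair measured 18 members, and 0 reached 1.5-fold in either direction. Of all 10756 genes that this pair measured, 1.42% reached 1.5-fold higher and 0.697% reached 1.5-fold lower. The members' median log2 ratio was -0.0041, against -0.0057 for all measured genes, with 9 members above 0 and 9 below. ZC3HAV1 had 2306 on the atovaquone array and 3414 on the vehicle array, 1.48-fold lower with atovaquone and just short of the 1.5-fold size, with a log2 ratio of -0.56. It held rank 92 from the low end of all genes, and 0.855% of them lay at or below it. The central 95% of all ratios in K562 ran from -0.42 to 0.48, and ZC3HAV1 was the only one of the 18 members outside it.

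TRIM25 had 966 on the atovaquone array and 960 on the vehicle array of K562, a log2 ratio of 0.01. The next lowest K562 members were IFI6, with 338 with atovaquone and 423 with vehicle and a log2 ratio of -0.32, and IRF7, with 376 with atovaquone and 467 with vehicle and a log2 ratio of -0.31. The highest were TRIM21, an Fc receptor and ubiquitin ligase, at 0.34, SP100 at 0.20 and EIF2AK2 at 0.19. IFITM1 and IFITM2, the members that marked K562, stood at -0.02 and 0.13, and ISG15 at 0.03. The other 26 members with a value were below the floor on both K562 arrays, so their response could not be read in this line.

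**Figure D4:**
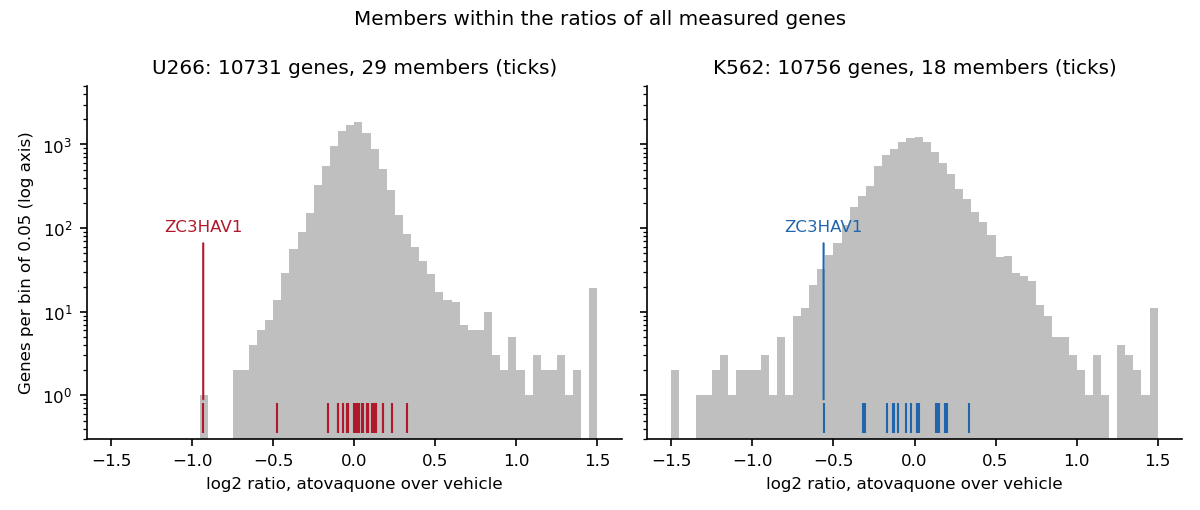
Number of genes in bins of log2 ratio, atovaquone over vehicle, on a log axis, for all genes measured on both arrays of U266 (left) and K562 (right), with ratios beyond the plotted range gathered in the outermost bins and members as coloured ticks. ZC3HAV1 lies at the low edge of the U266 distribution, at -0.93, and inside the lower tail in K562, at -0.56.

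Genes tied to ZC3HAV1 by family, function or position had ratios nearer 0. ZC3HAV1 is also known as PARP13, a family member without catalytic activity, and it works with the nuclease KHNYN and with RNA decay enzymes. Of 22 other PARP family and cofactor genes, 17 were measured on both U266 arrays and 17 on both K562 arrays. Among these, 0 were at least 1.5-fold different in either line. Such sizes were rare among all measured genes too, at 0.857% higher and 0.0932% lower in U266, and 1.42% and 0.697% in K562. The listed genes had log2 ratios from -0.24 to 0.16 in U266, with KHNYN the lowest, and from -0.28 to 0.38 in K562. TRIM25, the cofactor counted with the members and not in this list, stood lower in U266, at -0.48, and at 0.01 in K562. ZC3HAV1L is the shorter paralogue of ZC3HAV1 and its neighbour on chromosome 7. It had 458 and 513 with atovaquone and vehicle in U266, a log2 ratio of -0.15. In K562 it had 821 and 852 with atovaquone and vehicle, a log2 ratio of -0.05. UBN2, the other near neighbour measured in both lines, had log2 ratios of -0.15 in U266 and -0.0050 in K562. Of the remaining nearest genes, KIAA1549 was below the floor in U266 and stood at 0.16 in K562, IFT56 passed the floor on the K562 vehicle array alone, and TMEM213 and FMC1 had no probe set of their own.

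The pathway upstream of these genes was described from lists of receptors, kinases and sensors. All 6 interferon receptor subunits were measured in U266 and 5 of them in K562, and 0 were at least 1.5-fold different with atovaquone in either line. IFNAR2 had 3117 and 3362 with atovaquone and vehicle in U266, and 828 and 833 with atovaquone and vehicle in K562, and was 4.11-fold higher in vehicle-treated U266. IFNAR1 was 2.14-fold higher in vehicle-treated U266, and its log2 ratios with atovaquone were 0.0080 in U266 and -0.15 in K562. IFNGR1, a subunit of the interferon gamma receptor, had the highest receptor ratio in both lines, at 0.34 in U266 and 0.36 in K562. Of the receptor-bound kinases, JAK1 stood at 0.12 in U266 and -0.22 in K562, and TYK2 at -0.11 in U266 and 0.17 in K562. In the list of kinases and feedback genes 1 of 9 measured members reached 1.5-fold higher in U266, and 0 of 9 in K562. It was SOCS3, an inhibitor of cytokine signalling, with 920 on the atovaquone array and 377 on the vehicle array of U266, a 2.46-fold higher level. For the receptor and kinase lists, the shares of all measured genes were 0.857% higher and 0.0932% lower in U266. In K562 they were 1.42% higher and 0.697% lower.

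Among 20 genes of nucleic acid sensing and interferon regulatory factors, 0 of 12 measured in U266 were at least 1.5-fold different, and in K562 1 of 10 was at least 1.5-fold lower. That gene was MYD88, the adaptor of most Toll-like receptors, with 813 on the atovaquone array and 1262 on the vehicle array of K562 and a log2 ratio of -0.63. Of all measured genes, 0.697% reached 1.5-fold lower and 1.42% higher in K562, and 0.0932% and 0.857% in U266. TICAM1, the adaptor of TLR3, stood at -0.55 in K562, with 498 on the atovaquone array and 730 on the vehicle array. In U266 these adaptors had log2 ratios of 0.01 and 0.24. The highest sensing genes in U266 were TRAF6, a ubiquitin ligase, at 0.46 and CGAS, the cytosolic DNA sensor, at 0.44.

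Of the 21 interferon genes listed, 16 had a probe set of their own, and 2 of these were above the floor on both U266 arrays and 1 on both K562 arrays. Of all 18417 genes, 10731 were above it on both U266 arrays and 10756 on both K562 arrays. IFNL1 passed the floor on the U266 atovaquone array alone, at 341 against 280 on the U266 vehicle array. IFNL3 had 870 and 809 with atovaquone and vehicle in U266, and 886 and 920 with atovaquone and vehicle in K562. IFNA13 had 391 and 466 with atovaquone and vehicle in U266, and 32 and 29 with atovaquone and vehicle in K562. IFNA1 had no probe set of its own, and IFNL2, a relative of IFNL3, was below the floor on all 4 arrays, at 192 to 231. Whether the IFNA13 and IFNL3 probe sets also read related transcripts was not tested. IFNB1 was below the floor on all 4 arrays, at 82 to 103.

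**Figure D5:**
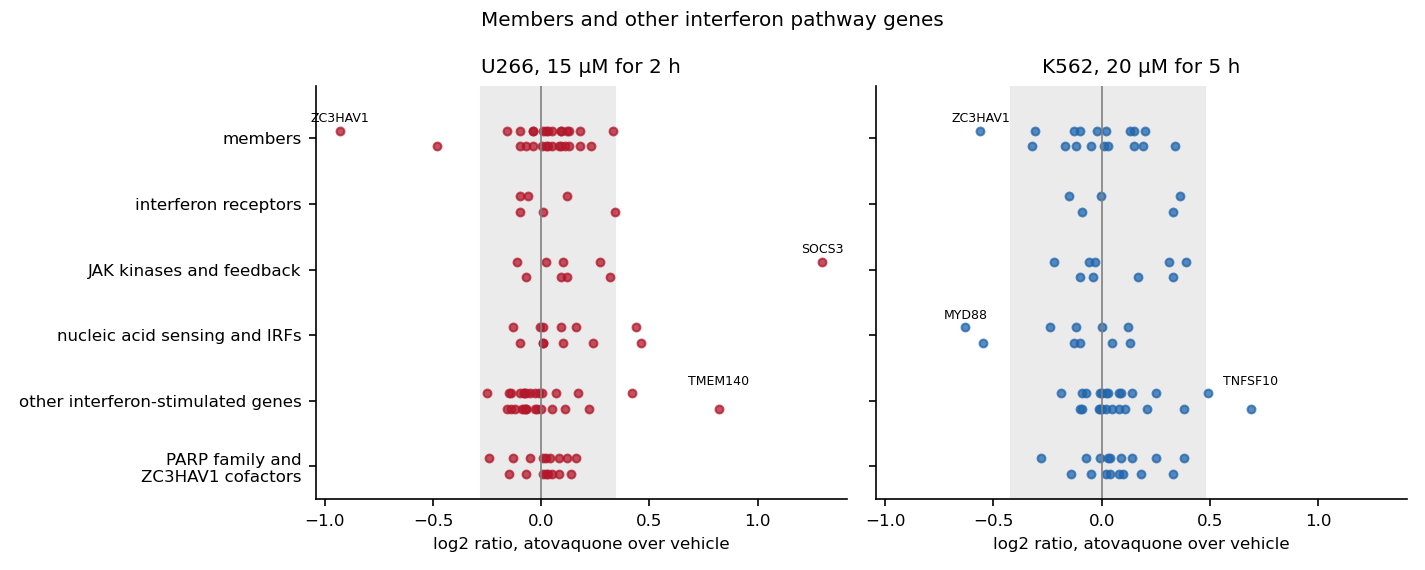
Log2 ratio of atovaquone over vehicle for the members and for 5 lists of related genes, each point 1 gene measured on both arrays, in U266 (left) and K562 (right), with grey bands for the central 95% of all measured genes and names for genes at least 1.5-fold different and for ZC3HAV1. In U266 ZC3HAV1 lies alone below -0.5, and in K562 MYD88, TICAM1 and ZC3HAV1 do.

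A further list of 51 genes known to respond to interferon was not part of the 46. Of 28 measured on both U266 arrays, 1 was at least 1.5-fold higher and 0 lower, and the median log2 ratio was -0.06. Of 24 measured on both K562 arrays, 1 was at least 1.5-fold higher and 0 lower, with a median of 0.02. All measured genes gave 0.857% higher and 0.0932% lower in U266, and 1.42% and 0.697% in K562. TMEM140, a membrane protein gene, was the U266 case, with 1326 on the atovaquone array and 756 on the vehicle array and a log2 ratio of 0.82. TNFSF10, which encodes the death ligand TRAIL, was the K562 case, with 605 on the atovaquone array and 377 on the vehicle array and a log2 ratio of 0.69. WARS1, the cytosolic tryptophanyl-tRNA synthetase, stood at 0.49 in K562.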

How the data were processed

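Per the labels' protocols, total RNA was extracted with Trizol, cleaned on a spin column and labelled with biotin by an Affymetrix procedure. The deposited values are the authors' processed intensity for each of 33252 probe sets, on a linear scale; the software, background correction, normalisation and probe summary are not stated in the labels or headers. Values were read with Python 3.11.15, numpy 2.4.6 and pandas 2.3.3. Of 21214 annotated probe sets, the 19460 with 1 symbol were used, and the brightest stood for a gene. The floor was each array's 40th percentile over annotated probe sets. Log2 ratios were centred on their median over measured probe sets, a shift of -0.0096 in U266, -0.0048 in K562 and -0.025 between vehicle arrays. With 1 array per group no test was run. The calculation was tested on simulated data with changes planted in bright U266 genes. No changes were planted near the floor, in K562 or between the lines. Genes were counted at 1.5-fold for atovaquone and 2-fold between lines. Named were members at least 1.5-fold different with atovaquone or at least 4-fold different between vehicle arrays, the 3 highest and 3 lowest per line, other members by role, and up to 4 genes per further list at 1.5-fold, with the kinases, receptors and neighbours fixed by name. TRAF6, CGAS, TICAM1, WARS1, IFNGR1, UBA7, the interferon genes and those in the closing section were added after their values were seen. Members and lists were chosen with earlier results of these data known. Other floors, quantile normalisation, no centring, averaged probe sets and an offset of 50 were tried.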

Additional observations from a re-analysis of the deposited data

How the results depend on the processing

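Counts that include bounds changed by more than 1.5 times under 2 settings of the floor. With the floor at the 60th percentile, 12 of 25 members were at least 2-fold higher in vehicle-treated U266 in place of 19 of 32, while the share of all genes was 8.49%. With no floor, 2 of 44 members (IFIT1 at 0.67 and IFIT2 at 0.82) were at least 1.5-fold higher with atovaquone in U266. In K562 1 of 44 (IFI44L at -0.63) was at least 1.5-fold lower. All genes gave 1.14% and 1.03% for these 2 counts. These 3 members were below the main floor, the 40th percentile, on all 4 arrays. ZC3HAV1 stayed between -0.94 and -0.90 in U266 and between -0.57 and -0.55 in K562 under the settings tried, and TRIM25 between -0.48 and -0.46 in U266. ZC3HAV1 kept the lowest rank of all genes in U266 except with the floor at the 20th percentile, where it had rank 7, and with no floor, where it had rank 23. IRF1 had a log2 ratio of -0.57 in U266 under a 20th percentile floor and with no floor, which placed it below TRIM25, at -0.47 under both. Bounds move with the floor by construction, and the K562 median ran from -0.03 to 0.04. No paired analysis was possible because each group had 1 array.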

Other observations

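Not every gene that responds to interferon was dimmer in K562. In the further list of 51 such genes, 36 were above the floor on a vehicle array, of which 11 were at least 2-fold higher in vehicle-treated U266 and 6 at least 2-fold higher in vehicle-treated K562. These are 30.6% and 16.7% of the 36, against 11.2% and 8.85% of all genes. The 6 were LY6E, at least 6.81-fold, CMPK2, at least 6.16-fold, PARP12, at least 5.74-fold, CXCL11, at least 3.70-fold, NMI, at least 2.90-fold, and MOV10, 2.10-fold. CMPK2, a mitochondrial nucleotide kinase gene, had 262 and 279 with atovaquone and vehicle in U266, and 2141 and 2071 with atovaquone and vehicle in K562. CXCL11, a chemokine that draws T cells, had 27 on both U266 arrays, and 1087 and 1243 with atovaquone and vehicle in K562. On the U266 side SAMD9L, an antiviral and growth-restraining gene, was at least 10.5-fold higher than in K562. UBE2L6, the conjugating enzyme for ISG15, was 6.10-fold higher in vehicle-treated U266, and the peptide transporter gene TAP1 5.69-fold.

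A probe set shared by GBP1, GBP3 and GBP1P1 was below the floor on all 4 arrays, at 234 and 256 with atovaquone and vehicle in U266, and 111 and 118 with atovaquone and vehicle in K562. A probe set shared by USP18 and USP41P had 910 and 926 with atovaquone and vehicle in U266, and 178 and 143 with atovaquone and vehicle in K562.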
